A study of Mus musculus with 5 samples.

Results

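Of 4092 genomic regions listed for the transcription factor CREB in mouse fetal testis, 424 lay outside protein-coding genes. They were found by merging the CREB peak lists of 3 embryonic stages wherever peaks overlapped by at least 1 bp on the assembled chromosomes of mm10. A merged region was kept when its midpoint lay in no protein-coding gene of the RefSeq annotation and no base of it lay within 1000 bp of a protein-coding gene end. The regions were chosen by CREB peak positions, so their number and their distance from genes describe the selection. The remaining regions comprised 617 inside protein-coding gene bodies and 3051 at protein-coding gene ends.

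The chromatin came from testes of mouse embryos of 3 stages named by their days of gestation, E13.5, E16.5 and E18.5. CUT&RUN uses an antibody to steer a nuclease that cuts out the DNA around its target. A CREB antibody was used at each stage and an H3K4 antibody at E18.5, on 100000 cells of the whole dissociated gonad per assay. The labels name neither a strain nor a number of animals, neither a genotype nor a treatment, and do not give the methylation state that the H3K4 antibody reads. Each antibody and stage had 1 library, so no value has a replicate check, and all intervals cover counting error only.

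The lists held 834, 3526 and 2947 CREB peaks on assembled chromosomes, from the earliest stage to the latest, and 21202 H3K4 peaks. List positions are given below in the same order of stages. Peaks were nearly uniform in width, at 150, 630 and 160 bp for CREB and 210 bp for H3K4. The lists give positions without a score, and the depth of the libraries is unknown. A peak missing from a list is therefore not shown to be absent, and a stage set means the lists in which a region has a peak. Cell types of the gonad were not separated, and positions alone do not allow a check of the tissue against the expression of its markers.

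CREB is a leucine zipper protein that binds the cAMP response element, the palindrome TGACGTCA, or a shorter element, TGACG, which reads CGTCA on the other strand. Protein kinase A, switched on by cAMP, phosphorylates CREB and thereby lets it recruit coactivators. In the testis cAMP carries the signal of gonadotropins to Leydig and Sertoli cells. Much CREB binding in mammalian cells is known to lie at promoters near start sites, while binding away from coding genes can fall on promoters of noncoding genes or on enhancers. H3K4 methylation marks both, with the trimethylated form typical of active promoters and the monomethylated form of enhancers.

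The sequence at these regions could be read where a region overlapped a RefSeq promoter window of a long noncoding RNA gene, which spans 250 bases before and 50 bases after a start. This held for 49 of the 424 regions and 60 windows. The windows below, from RefSeq on GRCm38.p6 and written 5′ to 3′ along the gene, show 5 of the windows with the full cAMP response element and those of 2 well placed regions that hold only the shorter one. Capitals mark TGACGTCA and the short element TGACG or CGTCA, and all other bases are in lower case.
1810044D09Rik (chr6:91440737-91441036, plus strand): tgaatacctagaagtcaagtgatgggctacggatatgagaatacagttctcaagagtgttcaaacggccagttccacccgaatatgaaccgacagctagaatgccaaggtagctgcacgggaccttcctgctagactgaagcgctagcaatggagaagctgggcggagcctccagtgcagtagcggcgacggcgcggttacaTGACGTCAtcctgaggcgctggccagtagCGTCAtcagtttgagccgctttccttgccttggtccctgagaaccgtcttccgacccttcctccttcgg
9430091E24Rik (chr8:111145449-111145748, minus strand): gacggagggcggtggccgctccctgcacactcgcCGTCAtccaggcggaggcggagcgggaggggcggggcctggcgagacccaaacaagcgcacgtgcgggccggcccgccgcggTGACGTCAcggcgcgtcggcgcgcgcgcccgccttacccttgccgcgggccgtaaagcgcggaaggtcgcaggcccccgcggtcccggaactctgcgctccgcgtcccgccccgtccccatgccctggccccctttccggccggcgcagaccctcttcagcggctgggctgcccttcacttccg
Snhg15 (chr11:6528711-6529010, minus strand): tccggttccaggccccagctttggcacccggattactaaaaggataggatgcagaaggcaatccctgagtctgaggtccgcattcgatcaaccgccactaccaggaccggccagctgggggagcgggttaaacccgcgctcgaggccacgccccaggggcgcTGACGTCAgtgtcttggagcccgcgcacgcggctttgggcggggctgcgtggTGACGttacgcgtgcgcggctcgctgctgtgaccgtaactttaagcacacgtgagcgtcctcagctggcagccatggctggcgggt
Meg3 (chr12:109540746-109541045, plus strand): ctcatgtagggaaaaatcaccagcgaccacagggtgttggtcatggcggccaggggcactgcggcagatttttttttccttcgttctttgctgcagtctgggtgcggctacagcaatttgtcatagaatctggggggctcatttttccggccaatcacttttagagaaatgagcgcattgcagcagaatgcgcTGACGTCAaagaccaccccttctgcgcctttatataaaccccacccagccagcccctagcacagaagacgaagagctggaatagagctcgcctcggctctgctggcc
Gm30419 (chr17:48582693-48582992, plus strand): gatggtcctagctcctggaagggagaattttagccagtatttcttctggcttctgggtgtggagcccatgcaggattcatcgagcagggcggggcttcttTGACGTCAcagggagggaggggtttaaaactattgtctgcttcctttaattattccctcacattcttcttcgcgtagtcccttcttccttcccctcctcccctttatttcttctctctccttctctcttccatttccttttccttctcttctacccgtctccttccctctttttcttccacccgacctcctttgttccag
Mir22hg (chr11:75461289-75461588, plus strand): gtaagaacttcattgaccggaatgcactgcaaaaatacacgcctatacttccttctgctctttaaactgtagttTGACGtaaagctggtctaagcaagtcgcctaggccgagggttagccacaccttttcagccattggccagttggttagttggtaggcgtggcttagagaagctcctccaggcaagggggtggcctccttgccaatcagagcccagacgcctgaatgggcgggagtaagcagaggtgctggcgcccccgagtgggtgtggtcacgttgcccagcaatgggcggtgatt
Crnde (chr8:92356071-92356370, minus strand): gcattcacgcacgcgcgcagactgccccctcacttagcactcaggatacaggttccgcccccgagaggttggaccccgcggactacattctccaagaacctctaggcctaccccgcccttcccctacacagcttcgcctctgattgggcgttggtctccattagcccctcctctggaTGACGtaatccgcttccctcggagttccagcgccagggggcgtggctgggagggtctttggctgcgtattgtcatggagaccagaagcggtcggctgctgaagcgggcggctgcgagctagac

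The full element TGACGTCA was present in 10 of the 60 windows at these regions (16.7%, 95% interval 9.31 to 28.03). Some windows overlap and are not independent. By region, 7 of 49 held the full element (14.3%, 7.10 to 26.7). Among long noncoding windows outside coding genes that carried an H3K4 peak and no CREB region, 0 of 159 held it (Wilson interval 0 to 2.36%). It was present in 0.975% of all 11588 long noncoding windows and in 1.79% of all 32851 windows of the table. Windows of coding genes with a gene-end CREB region held it in 10.6% (9.59 to 11.8; 321 of 3018). Both strands were searched, and every full element also counts as a short element.

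The 10 windows belonged to 7 regions, because neighbouring or divergent starts shared a sequence, and they held 8 distinct elements. Of these, 7 lay inside the CREB region, at a median of 70.5 bp from its midpoint over all 8. In the Gm30419 window the element lay on the midpoint itself. The element shared by the divergent genes 1810044D09Rik and 4930471M09Rik, shown above, lay 13 bp from the midpoint of a region listed at all 3 stages. The element of Meg3, a maternally expressed imprinted RNA gene, lay 57 bases before its start and 65 bp from the midpoint of a region listed at E16.5 alone. That of Snhg15, a host gene of small nucleolar RNA, lay 88 bases before its start in a region listed at E16.5 and E18.5. Elements were found in 1 of 11 regions of 3 stages, 2 of 19 regions of 2 stages and 4 of 19 regions of 1 stage. With these counts an order among the stage sets was not detectable.

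The short element was present in 35 of the 60 windows (58.3%, 45.7 to 69.9) and in 34 of the 159 windows with H3K4 alone (21.4%, 15.7 to 28.4). By region it was present in 31 of 49 (63.3%, 49.3 to 75.3). It was present in 15.7% of all long noncoding windows and in 20.8% of all windows. Coding windows with a gene-end CREB region held it in 58.8% (57.0 to 60.5). Base composition moved with these shares: the median window at these regions had 57.8% G and C and 18 CpG, against 53.3% and 11 in the 159 windows and 47.0% and 3 in the 7259 long noncoding windows outside coding genes. Its part in the result was not tested. Other promoter motifs were searched in the same way on both strands. The GC box GGGCGG, or CCGCCC on the other strand, was present in 58.3% of the 60 windows (45.7 to 69.9), against 44.7% of the 159 windows with H3K4 alone (37.1 to 52.4) and 16.3% of all long noncoding windows. The CCAAT box, which reads ATTGG on the other strand, was present in 33.3% of the 60 windows (22.7 to 45.9), against 32.7% of the 159 windows (25.9 to 40.3) and 36.0% of all long noncoding windows. In the 49 regions the midpoint lay at a median of 119 bp from the start, upstream of it in 37 and within 300 bp of it in 42.

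The microRNAs whose genes lay at or near these regions are short RNAs that repress messages paired with their seed. Their mature sequences, from RefSeq on GRCm38.p6, are given 5′ to 3′ with the seed, bases 2 to 8, in capitals. The first 4 are shown because a region lies at or near their genes or, for Mir22, at the host gene, and the let-7 products because their genes have a region of all 3 stages within 10000 bp. Both the miR-132 and miR-212 products and the let-7 products share a seed.
mmu-miR-132-3p (chr11:75173723-75173744, plus strand): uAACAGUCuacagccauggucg
mmu-miR-212-3p (chr11:75173443-75173464, plus strand): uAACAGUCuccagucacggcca
mmu-miR-210-3p (chr7:141221407-141221428, minus strand): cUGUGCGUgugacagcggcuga
mmu-miR-22-3p (chr11:75463772-75463793, plus strand): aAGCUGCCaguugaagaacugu
mmu-let-7a-5p (chr13:48538239-48538260, minus strand): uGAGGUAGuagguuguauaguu
mmu-let-7f-5p (chr13:48537889-48537910, minus strand): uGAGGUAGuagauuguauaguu

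Mir212 and Mir132 form a cluster whose induction through CREB is known from neurons and other cells, and their 3p products share the seed AACAGUC. The region at chr11:75173051-75173680 had its midpoint 23 bp from an end of Mir212 and 317 bp from Mir132. It stood in position 763 of the E13.5 list and 1698 of the E16.5 list and had no E18.5 peak, where the nearest CREB midpoint was 175020 bp away. It was the single region outside coding genes listed at E13.5 and E16.5 alone. The nearest H3K4 midpoint, measured at E18.5, was 5597 bp away.

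Mir22hg, the host gene of Mir22, had the best mean list position of all 40 regions listed at 3 stages. Its region at chr11:75460901-75461530 stood in positions 47, 73 and 54. The midpoint lay 324 bp before the start of Mir22hg and 2501 bp from Mir22, with an H3K4 midpoint 166 bp away. The Mir22hg window printed above holds the short element and no full element.

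Mir210, which encodes a microRNA induced by low oxygen, had a region at chr7:141221761-141222390 in position 1620 (E16.5) and position 2562 (E18.5). It lay 582 bp from the gene and had an H3K4 midpoint 395 bp away. The region nearest to Mirlet7a-1 and Mirlet7f-1, whose 5p products share the let-7 seed, lay farther off, at 8074 and 8429 bp. It spanned chr13:48545904-48546788, was listed at all 3 stages in positions 687, 631 and 581 and had an H3K4 midpoint 213 bp away. In all, 17 of 1228 microRNA genes had a region of this kind within 10000 bp, at 14 regions (1.38%, 0.866 to 2.21), and 3 genes had one within 1000 bp of an end (0.244%, 0.0831 to 0.716). Over all 28056 noncoding genes and pseudogenes the shares were 1.29% and 0.499%, and the microRNA intervals hold both. Over all 49943 genes the shares were 1.11% and 0.280%. The rule itself leaves 0 of 21887 coding genes with a region within 1000 bp, so the 0.280% is no background for microRNA genes.

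Most of the regions outside coding genes were listed at 1 stage. A peak of E16.5 alone made up 211 of the 424, E18.5 alone 61 and E13.5 alone 8. Peaks of E16.5 and E18.5 made up 101, E13.5 and E18.5 gave 2, E13.5 and E16.5 gave 1, and all 3 stages gave 40. The share at 3 stages was 9.43% (7.0 to 12.6), against 12.2% in gene bodies, 21.5% at gene ends and 18.9% of all merged regions. The difference was -2.72 percentage points from gene bodies (-6.44 to 1.21), an interval that holds 0, and -12.1 points from gene ends (-15.0 to -8.64). The share at 1 stage was 66.0% (61.4 to 70.4), against 59.5% in gene bodies, 34.3% at gene ends and 41.3% of all merged regions. With every CREB peak set to 150 bp the share at 3 stages was 7.81%, and the part of the unlike length of the lists was not tested.

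Regions of a single list were rarely near misses of a merge. A midpoint of another CREB list lay within 1000 bp of 0 of 8 E13.5 regions, 4 of 211 E16.5 regions and 6 of 61 E18.5 regions. The median distance to such a midpoint was 180102, 232064 and 157704 bp in the same order. By list, the regions took in 51 of 834 peaks at E13.5 (6.12%, 4.68 to 7.95), 353 of 3526 at E16.5 (10.01%, 9.06 to 11.0) and 206 of 2947 at E18.5 (6.99%, 6.12 to 7.97).

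In both later lists these peaks stood late. With each list cut into 5 equal parts, 19.7% of the peaks in the last part of the E16.5 list (16.9 to 22.8) belonged to regions outside coding genes, against 4.82% in its first part (3.47 to 6.66). The last part of the E18.5 list held 13.48% (11.0 to 16.49), against 4.07% (2.75 to 5.99) in its first. For E13.5 the shares were 7.60% (4.50 to 12.6) in the last part and 6.75% (3.81 to 11.7) in the first, with intervals that overlap. The median region outside coding genes stood at percentile 61.3 in the E13.5 list, 72.7 in the E16.5 list and 73.1 in the E18.5 list. For gene bodies the medians were 55.4, 63.7 and 59.3, and for gene ends 49.9, 44.7 and 46.8. No source used here explains the order of a list.

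**Figure D1:**
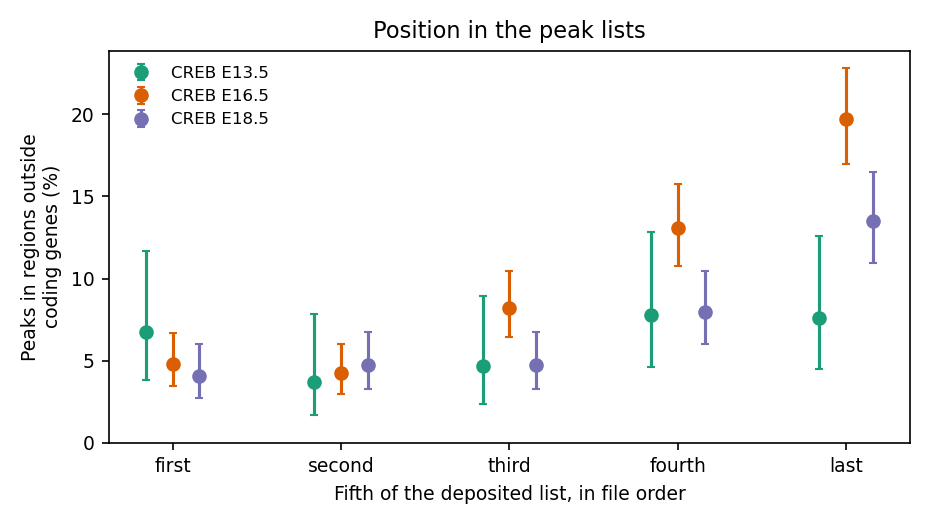
Share of each CREB list's peaks that lie in regions outside coding genes (y axis, percent) by 5 equal parts of the list in file order (x axis). Points are shares of 1 library and bars 95% Wilson intervals. The E16.5 share is 19.7% in the last part against 4.82% in the first, the E18.5 share is 13.48% against 4.07%, and for E13.5 the intervals of the first and last parts overlap.

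H3K4, which the rule did not use, was found beside a smaller share of the regions outside coding genes than of the other classes. Within 1000 bp, 197 of the 424 had an H3K4 midpoint (46.5%, 41.8 to 51.2), against 66.5% of gene-body regions (62.6 to 70.1), 93.1% of gene-end regions (92.2 to 94.0) and 84.3% of all merged regions. The difference was -20.0 percentage points from gene bodies (-25.9 to -13.9) and -46.7 points from gene ends (-51.5 to -41.8). H3K4 peaks themselves lay at coding gene ends in 63.2% of cases and outside coding genes in 13.3%. Of the 2826 H3K4 peaks outside coding genes, 244 had a CREB midpoint within 1000 bp (8.63%, 7.65 to 9.73), against 12.2% of those in gene bodies and 28.2% of those at gene ends.

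Where H3K4 was near, it was close. The H3K4 midpoint lay at a median of 201 bp from the midpoint of the 197 regions, with 155 regions having 1 such midpoint, 41 having 2 and 1 having 3. Midpoints on both sides of the region were found at 37 of the 424 regions (8.73%, 6.4 to 11.8). The share was 14.4% in gene bodies, 27.2% at gene ends and 23.4% of all merged regions. The differences were -5.70 points from gene bodies (-9.49 to -1.71) and -18.5 points from gene ends (-21.3 to -15.0).

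**Figure D2:**
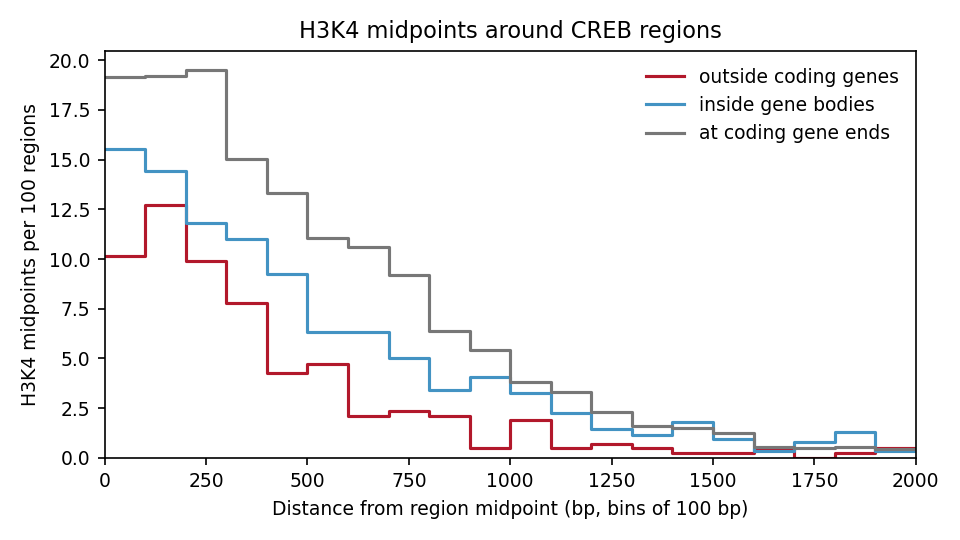
H3K4 midpoints per 100 CREB regions (y axis) in bins of 100 bp of distance from the region midpoint (x axis, bp), for regions outside coding genes, inside gene bodies and at coding gene ends. In every bin below 900 bp the line of regions outside coding genes is the lowest, and all lines are low beyond 1500 bp.

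The H3K4 share differed with the number of stages. Among regions outside coding genes it was 38.2% for 1 stage (32.7 to 44.0; 107 of 280), 54.8% for 2 stages (45.2 to 64.0; 57 of 104) and 82.5% for 3 stages (68.0 to 91.3; 33 of 40). The difference between 3 stages and 1 stage was 44.3 percentage points (28.7 to 54.6). Within regions of 3 stages, the share outside coding genes was 82.5% against 81.3% in gene bodies, a difference of 1.17 points (-15.0 to 14.7). This interval leaves room for differences of either sign. For 1 stage the difference from gene bodies was -17.6 points (-25.1 to -9.90) and for 2 stages -27.5 points (-38.2 to -16.3).

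**Figure D3:**
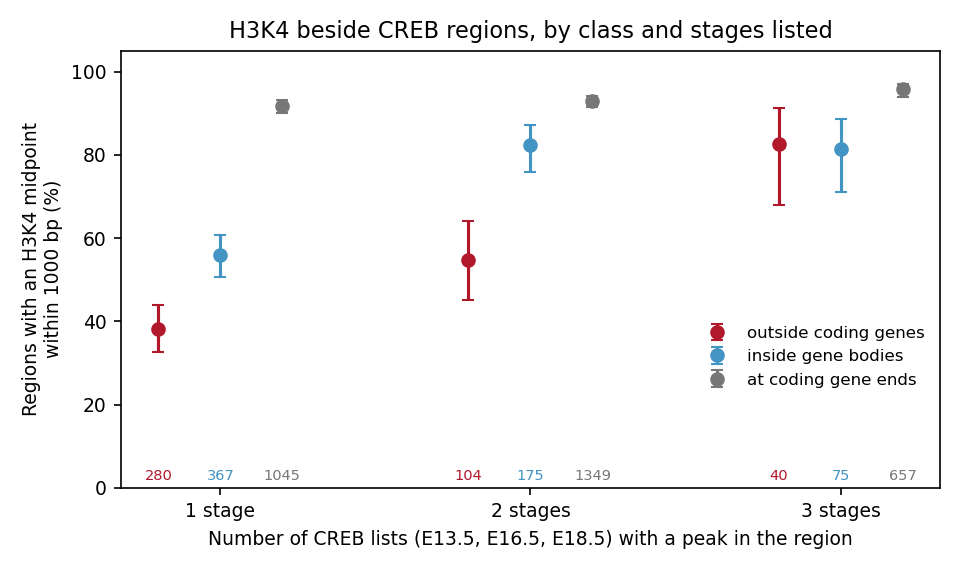
Share of CREB regions with an H3K4 midpoint within 1000 bp (y axis, percent) by number of CREB lists with a peak (x axis), for regions outside coding genes, inside gene bodies and at coding gene ends. Points are shares, bars 95% Wilson intervals and the figures along the axis numbers of regions. Outside coding genes the share is 38.2%, 54.8% and 82.5% at 1, 2 and 3 stages, while at gene ends it is above 90% throughout.

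Since the H3K4 library was made at E18.5, the stage of a region matters to this comparison. Over all 204 regions outside coding genes with an E18.5 peak the share was 53.4%. With the same limit to E18.5 peaks the difference from gene bodies was -20.9 points. Of the 8 regions of E13.5 alone, 0 had H3K4 near (Wilson interval 0 to 32.4%). Regions of E16.5 alone had it in 41.7% (35.3 to 48.4; 88 of 211) and regions of E18.5 alone in 31.1% (20.9 to 43.6; 19 of 61). The median distance to an H3K4 midpoint was 224.5 bp for the 40 regions of 3 stages and 11110 bp for the 280 of 1 stage.

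The most distant regions had the least H3K4. The midpoint of a region outside coding genes lay at a median of 17353.5 bp from the nearest coding gene end, with quartiles of 6583 and 55761 bp and a range from 1118 to 1275437 bp. H3K4 was near 24 of the 113 regions over 50000 bp away (21.2%, 14.7 to 29.7), against 173 of the 311 nearer ones (55.6%, 50.1 to 61.0), a difference of -34.4 points (-42.9 to -24.3). The share was 47.6% up to 2000 bp, 53.2% from 2000 to 5000 bp, 68.2% from 5000 to 10000 bp and 52.5% from 10000 to 50000 bp.

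Distance also moved with the stages. The median was 25620 bp for 1 stage, 11714.5 bp for 2 stages and 10948.5 bp for 3 stages, and 1 of the 113 regions over 50000 bp away was listed at all 3 stages. That region, at chr6:51170803-51171432, lay 51840 bp from Gm38821 and had no H3K4 midpoint within 1000 bp. A second region of all 3 stages without H3K4, at chr6:51178070-51178778, lay between it and the same gene, and was chosen after its values were seen.

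**Figure D4:**
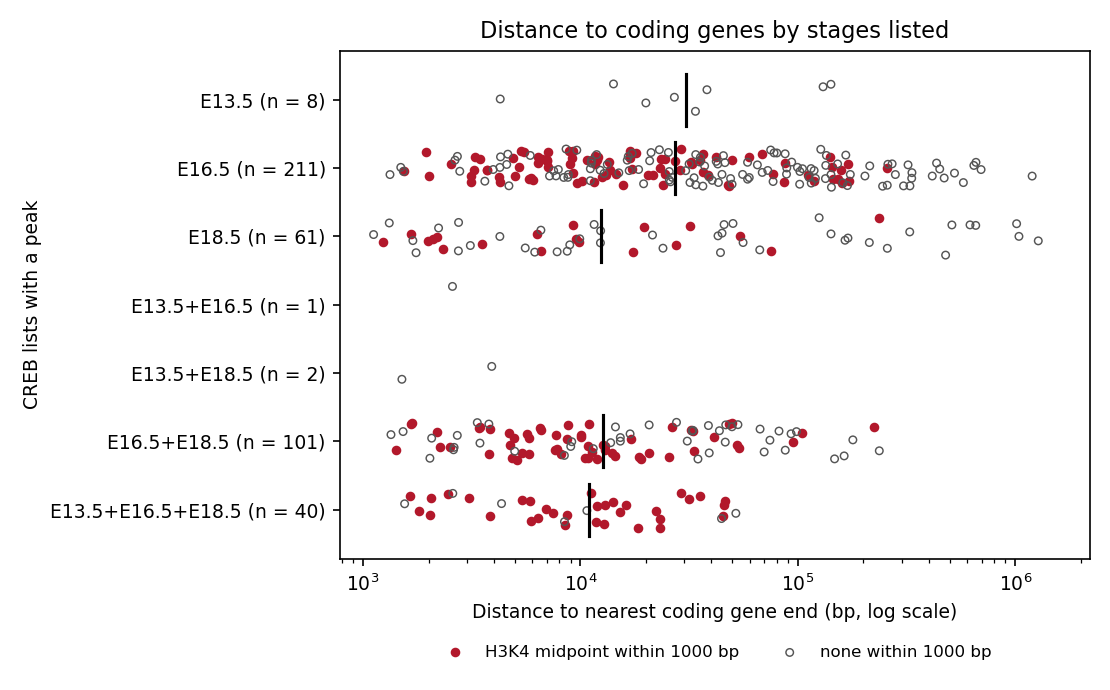
Distance from each region outside coding genes to the nearest coding gene end (x axis, bp, log scale), by the CREB lists with a peak in the region (y axis). Each point is 1 of the 424 regions, filled where an H3K4 midpoint lies within 1000 bp, and vertical lines mark medians of sets over 4 regions. Filled points make up 33 of the 40 regions of all 3 stages and 24 of the 113 regions over 50000 bp away.

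The 4 regions farthest from any gene end were each listed at 1 stage and had no H3K4 midpoint within 1000 bp. The farthest, at chr5:46871751-46871910, was listed at E18.5 and lay 456392 bp from any gene and 1013995 bp from Lcorl. The others lay at chr17:60052580-60052739 and chr5:56440629-56440788, both listed at E18.5, and at chr7:94975647-94976276, listed at E16.5. They stood in the later part of their lists, at percentiles from 75.1 to 88.2.

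By chromosome, the share of merged CREB regions that lay outside coding genes ran from 6.49% on chromosome 19 (10 of 154) to 18.9% on chromosome 12 (30 of 159), leaving aside chromosome Y, where 0 of 2 did.

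At the near side of the limit, the closest regions kept were separated from a coding gene end by 1015 bp (Nckap5l), 1030 bp (Borcs6) and 1038 bp (Mex3b). The closest left out were separated by 924 bp (Zfp36), 923 bp (Maoa) and 869 bp (Nab2). None of these 6 regions had an H3K4 midpoint within 1000 bp.

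Ends of noncoding genes took up a sizeable share of these regions. A noncoding gene end lay within 1000 bp of 115 of the 424 (27.1%, 23.1 to 31.5), against 10.9% of gene-body regions, 16.6% of gene-end regions and 16.8% of all merged regions. The difference was 16.3 points from gene bodies (11.4 to 21.2) and 10.5 points from gene ends (6.3 to 15.1). Of the H3K4 peaks outside coding genes, 842 of 2826 lay at a noncoding end (29.8%, 28.1 to 31.5). This interval overlaps that of the CREB regions outside coding genes, so the share is not particular to CREB. A further measure, the midpoint lying inside a noncoding gene, held for 109 regions (25.7%).

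Regions at noncoding ends had H3K4 more often than the other regions outside coding genes. H3K4 was near 83 of the 115 (72.2%, 63.4 to 79.5), against 114 of the 309 away from noncoding ends (36.9%, 31.7 to 42.4), a difference of 35.3 points (24.9 to 44.3). In gene bodies the share was 79.1% at noncoding ends (53 of 67) and 64.9% away from them. At noncoding ends the difference from gene bodies was -6.93 points (-18.8 to 6.46), an interval that leaves room for either sign. Noncoding ends were found at 37.5% of the regions of 3 stages (24.2 to 53.0) and 22.5% of those of 1 stage (18 to 27.7). Regions of E16.5 alone had a noncoding end in 26.5% and those of E18.5 alone in 11.5%, a difference of 15.1 points (3.33 to 23.7). The E16.5 peaks were wider, 630 against 160 bp, and the part of width in this difference was not tested. With every CREB peak set to 150 bp the share of all regions at a noncoding end was 26.3%.

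Long noncoding RNA genes accounted for 87 of the 115 regions, and H3K4 was near 63 of them and 13 were listed at all 3 stages. These regions lay at ends of 93 of 12736 long noncoding genes (0.730%, 0.596 to 0.894). The share was 0.0943% for pseudogenes. Both are counted from the region edge. Counted from the region midpoint, a narrower measure, the share was 0.691% for long noncoding genes and 0.499% over all noncoding genes and pseudogenes. Among the best placed, the region of Gm36445 at chr13:65240992-65241621 stood in positions 158, 52 and 233, with H3K4 midpoints on both sides. The region of Gm31936 at chr10:81571367-81571996 stood in positions 537, 94 and 343, with H3K4 179 bp away. Rab10os and B930059L03Rik on chromosome 12 and 5730405O15Rik on chromosome X also had regions of all 3 stages with H3K4 within 1000 bp.

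Crnde is a long noncoding gene whose start lies beside Irx5, the gene of a homeobox factor. Its region at chr8:92355809-92356438 stood in position 668 (E16.5) and position 661 (E18.5), 3 bp from the Crnde end and 1673 bp from Irx5, with H3K4 191 bp away. The Crnde window printed above holds the short element. Several host genes of small nucleolar RNAs, which act in the modification of ribosomal RNA, were also present. The region of Snhg8 at chr3:123508104-123508733 was listed at all 3 stages, in positions 706, 868 and 847, that of Snhg15 at E16.5 and E18.5, and that of Snhg12 at E16.5 alone. Each of these 3 had H3K4 within 1000 bp. The Snhg genes were chosen after their values were seen.

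Transfer RNA genes, transcribed by RNA polymerase III, had 16 of the regions at an end. These lay within 1000 bp of an end of 30 of 408 annotated genes (7.35%, 5.20 to 10.3). The share was 0.730% for long noncoding genes. Counted from the region midpoint, a narrower measure, it was 0.499% over all noncoding genes and pseudogenes. Neighbouring tRNA genes shared regions, so the 30 genes are not independent. H3K4 was near 13 of the 16 regions. None of the 16 was listed at E13.5, so none was listed at 3 stages (0 to 19.4%). This interval holds the 9.43% of all 424 regions. The best mean list position, as a percentile over the later 2 lists, was that of the region at n-TAagc8, chr4:132515267-132515896, in position 1195 (E16.5) and position 1292 (E18.5). The pair at n-THgtg4 and n-THgtg3 on chromosome 2 stood in positions 875 and 500 of the E16.5 list and 1590 and 1990 of the E18.5 list. Of this pair, the region at n-THgtg4 had H3K4 within 1000 bp and the region at n-THgtg3 did not. The region at n-TYgta7 on chromosome 13 stood in position 859 (E16.5) and position 2256 (E18.5), with its nearest H3K4 midpoint 1987 bp away. A region at chr11:69062606-69063235 lay within 1000 bp of an end of 4 tRNA genes, among them n-TIaat4. It had no H3K4 midpoint within 1000 bp.

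Other small RNA genes had 11 regions at an end and pseudogenes 10, with H3K4 near 9 and 8 of them. Rn7s2, a copy of the gene for the RNA of the signal recognition particle, had a region at chr12:69361222-69361851 that was listed at all 3 stages, in positions 600, 345 and 687. The nearest H3K4 midpoint was 2856 bp away. The pseudogene Gm15488 also had a region of all 3 stages, with H3K4 midpoints on both sides. Near-identical copies of such genes share reads, so the placement of these peaks, and of those at tRNA genes and pseudogenes, is uncertain.

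With neither H3K4 within 1000 bp nor a noncoding end there remained 195 of the 424 regions (46.0%, 41.3 to 50.7), of which 154 also had their midpoint outside every noncoding gene. They made up 53.9% of the regions of 1 stage (151 of 280), 36.5% of those of 2 stages (38 of 104) and 15.0% of those of 3 stages (6 of 40).

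The coding genes nearest to these regions included several immediate early genes, which cells switch on within minutes of a signal without making new protein. Of 18 known cAMP targets, 7 were the nearest coding gene of at least 1 region: Fos, Fosb, Nr4a1, Nr4a3, Ier2, Sik1 and Bdnf. They accounted for 10 regions, of which 7 had H3K4 within 1000 bp and 2 were listed at all 3 stages. All 424 regions had 396 distinct nearest genes, out of 21887 coding genes. Of 34 developmental transcription factors 6 were nearest to a region, and 1 of these 6 regions had H3K4 near. The list of 26 Leydig cell genes had 1 such gene, Tcf21, which stands in both lists, and the lists of 17 Sertoli cell genes, 16 germ cell genes and 14 genes of the CREB family and protein kinase A had 0. The gene lists were chosen with earlier results of these data known, so these counts only describe the lists and are no independent support. A nearest gene is a matter of position and is not shown to be a target.

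Nr4a1 encodes an orphan nuclear receptor that responds to gonadotropin signals in Leydig cells. Its region at chr15:101246127-101246756 lay 7461 bp from the gene and stood in positions 87, 79 and 130. An H3K4 midpoint lay 184 bp away. The outermost annotated ends of Nr4a1 carried no CREB region, and starts inside its span of 20894 bp were not examined. By the same measure Fos, Fosb, Ier2 and Sik1 had a CREB region at an end, and Nr4a3 and Bdnf did not.

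Fos encodes a subunit of the transcription factor AP-1 and had 3 of the regions around it. The region at chr12:85455106-85455735 lay 18470 bp before Fos, inside the long noncoding gene Gm38543, and stood in positions 157, 232 and 137, with H3K4 238 bp away. On the other side, the region at chr12:85485684-85486313 lay 8724 bp from the gene, in position 1348 (E16.5) and position 1773 (E18.5), with H3K4 781 bp away. The third, at chr12:85532654-85533283, was listed at E16.5 alone in position 1975 and lay 55694 bp away, without H3K4 within 1000 bp. The Fos gene end itself had a CREB peak in all 3 lists.

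Fosb, a relative of Fos, had regions at chr7:19319840-19320469 and chr7:19326750-19327379, at 10036 and 16946 bp, each with an H3K4 midpoint 103 bp away. The nearer was listed at E16.5 and E18.5 and the farther at E16.5 alone, in position 1008. Regions of E18.5 alone lay 1653 bp from Nr4a3, another orphan receptor gene, and 1231 bp from Ier2, with H3K4 309 and 881 bp away. The regions nearest to Sik1, which encodes a kinase that restrains CREB coactivators, and to Bdnf, a neurotrophin gene, lay at 66995 and 115178 bp and had no H3K4 within 1000 bp.

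Among developmental factors, Id3 had a region of E16.5 and E18.5 at 3353 bp, and Id2, another inhibitor of helix-loop-helix factors, had one of E16.5 alone at 2785 bp. Tcf21, a factor of interstitial progenitors, had a region of E16.5 alone at chr10:22839344-22839973, 19515 bp away. A region of E16.5 alone also lay 118782 bp from Meis1. None of these 4 regions had H3K4 within 1000 bp, and the region at Irx5, described with Crnde, was the one of this list that did.

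The nearest coding gene also had a CREB region at an end in 97 of the 424 cases (22.9%, 19.1 to 27.1), against 16.7% of all 21887 coding genes. It had an H3K4 peak at an end in 63.2% (58.5 to 67.7), against 52.7% of all coding genes.

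No 3 regions followed each other with gaps within 10000 bp. With gaps of up to 50000 bp there were 4 such stretches. The 4 regions around Malat1 and Neat1, both genes of abundant nuclear long noncoding RNAs, spanned chr19:5802993-5846796, with no H3K4 midpoint within 1000 bp of any. They were listed at E16.5, at E18.5 or at both, and not at E13.5. The 3 regions of a stretch on chromosome 18, from 65510168 to 65534545, were each listed at 1 stage and had no H3K4 within 1000 bp. The stretch around Fos is the third.

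The fourth stretch, chr17:34257576-34296579, lay among H2-Ab1, H2-Aa and H2-Eb1, the genes for chains of class II antigen-presenting proteins. Its region at chr17:34295950-34296579 had the second best mean list position of all regions outside coding genes, with positions 34, 95 and 154. It lay 8441 bp from H2-Aa, and the nearest H3K4 midpoint was 13498 bp away. The regions at chr17:34261636-34261801 and chr17:34291648-34291814 were the only ones listed at E13.5 and E18.5 and not at E16.5, in positions 259 and 301 of the E13.5 list and 429 and 373 of the E18.5 list. The fourth region, at chr17:34257576-34257735, was listed at E18.5 alone. None of the 4 had an H3K4 midpoint within 1000 bp, and their nearest ones lay between 1684 and 18031 bp away.

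**Figure D5:**
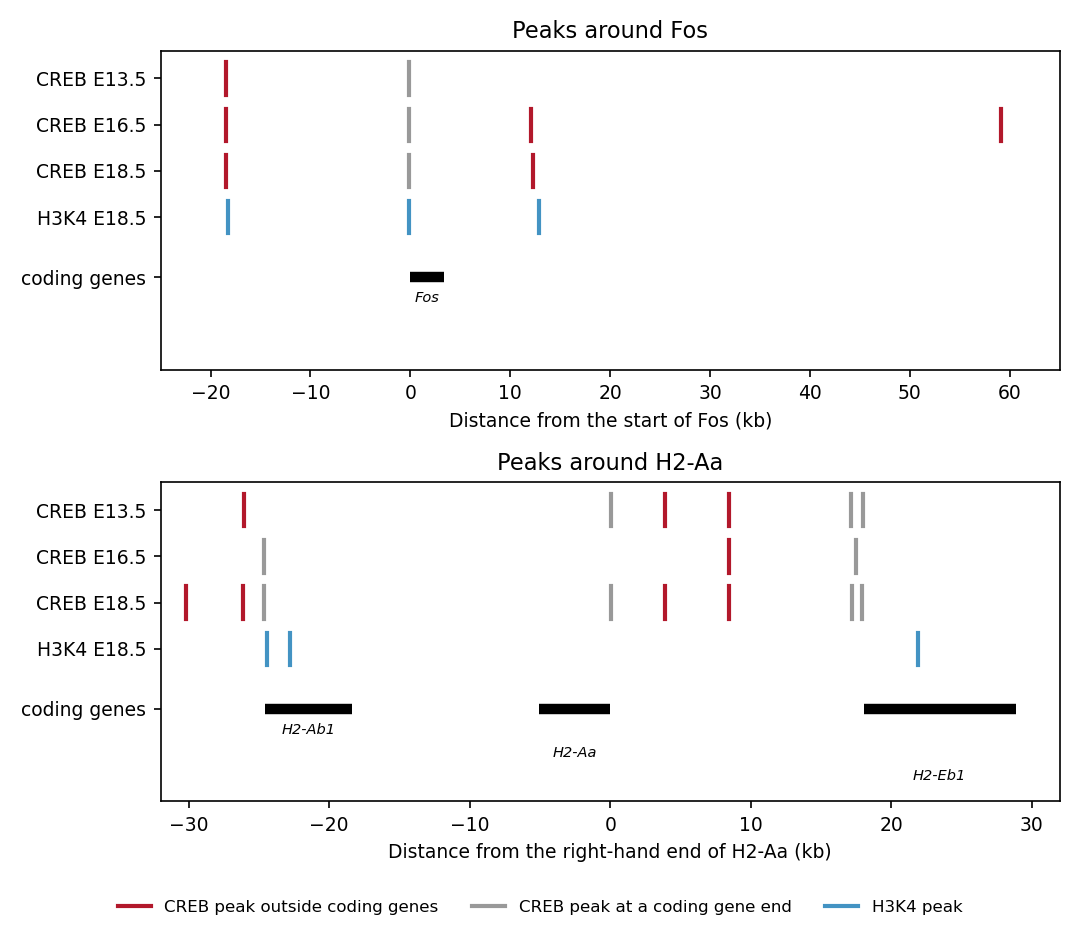
Peaks of the CREB and H3K4 lists (rows) by distance in kb from the start of Fos (upper panel) and from the right-hand end of H2-Aa (lower panel), each peak drawn as a tick at its midpoint. Black bars are coding genes, and ticks are coloured by class. Around Fos 2 of 3 regions outside coding genes have an H3K4 tick beside them, and around H2-Aa none of 4 does.

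The other best placed regions of all 3 stages lay near Pisd, Zfp958 and Midn. The region at chr5:32713754-32714383 stood in positions 109, 142 and 51 and lay 22233 bp from Pisd, a gene of phospholipid synthesis in mitochondria. The region at chr8:4677961-4678642 stood in positions 118, 47 and 173 and lay 45729 bp from Zfp958. The region at chr10:80159701-80160330 stood in positions 143, 298 and 107 and lay 1647 bp from Midn. Each of these 3 had an H3K4 midpoint within 300 bp.

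Of the 40 regions of all 3 stages, 7 had no H3K4 midpoint within 1000 bp. Beside the regions at H2-Aa, at Rn7s2 and the pair on chromosome 6, they included chr4:130036802-130037431, 10701 bp from the collagen gene Col16a1, in positions 264, 537 and 494. Another, at chr15:81859565-81860194, lay 1553 bp from Tob2, with H3K4 1292 bp away and so just past the limit. The remaining region, chosen after its values were seen, lay 2587 bp from Igf2bp3.

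The best placed regions of E16.5 and E18.5 alone lay near Slc2a3, a glucose transporter gene, and near Ube2v1 and Morn3. The region at chr6:122810737-122811366, 8688 bp from Slc2a3, stood in position 382 (E16.5) and position 402 (E18.5) and had H3K4 midpoints on both sides. The region 2623 bp from Ube2v1 had its nearest H3K4 midpoint 2323 bp away, and the region 10903 bp from Morn3 had one 353 bp away.

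Among the regions of a single stage, the best placed at E16.5 were chr15:85669475-85670104, in position 976 and 65121 bp from Ppara, the Fosb region described above and the region of Gm32287 and Gm14321 in position 1119. The last of these held the full element in windows of both genes. At E18.5 the best placed were chr6:117879296-117879455, at the ends of Gm38883 and Gm38882 in position 1071, the H2-Ab1 region in position 1395, and chr14:70074903-70075062, in position 1448. The third lay 2335 bp from Egr3, an early growth response gene, and had H3K4 9 bp away. A CREB midpoint of another list lay 492 bp from the first of these 3 and 1829 bp from the third.

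Regions of E13.5 alone were few, and the 2 best placed stood at percentiles 29.7 and 55.1 of the list. The best placed, at chr8:98882486-98882635, stood in position 256 and lay 141911 bp from Cdh8, a cadherin gene, with the nearest H3K4 midpoint 533840 bp away. The next, at chr11:113114190-113114339, stood in position 475 and lay 130587 bp from Slc39a11, a zinc transporter gene. Over all 8, the median distance to a coding gene end was 30415 bp and the median distance to an H3K4 midpoint 37025.5 bp.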

How the data were processed

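CUT&RUN had been done with antibodies against CREB at 3 stages and against H3K4 at E18.5, with 1 library each. Trim Galore 0.6.10, Bowtie2 2.5.2 and MACS2, with mm10 as the build, are listed in the submitters' processing notes. The deposited files hold, per their columns, the chromosome, start and end of each peak and no other value. Not given in the sources used here are read depth, peak calling settings and any use of the IgG library as control. Peaks on the assembled chromosomes were merged across the CREB lists at an overlap of 1 bp or more, classed against the RefSeq gene table of GRCm38.p6, whose coordinates are those of mm10, and set beside H3K4 midpoints. That table gives gene starts and ends without exons. Positions are 1-based. Shares carry 95% Wilson intervals and differences of shares Newcombe intervals, both of which cover counting error only. No p-value was computed, since each group is 1 library. The regions, gene lists and limits were chosen with earlier results of these data known. Regions were named by list position, number of stages, distance, stretches of neighbouring regions and gene list. Regions named only for a full element or for the let-7 genes fell outside these rules. The choice of printed windows with the full element also fell outside them. Other regions are said to have been chosen after their values were seen. Motifs were searched in RefSeq promoter windows of 300 bases, since no genome sequence was used here. The code was tested on simulated data and ran in Python 3.11.15 with numpy 2.4.6, pandas 2.3.3, scipy 1.17.1 and matplotlib 3.10.9. Other window sizes, peak widths and H3K4 limits, and the merge without the E16.5 list, were tried as alternatives, and 21 of the 61 recomputed values, among them all those of 2 settings, were added after seeing the data. One gene of the lists is not reported here by name.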

Additional observations from a re-analysis of the deposited data

Results flagged for a closer look

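Peaks on scaffolds outside the assembled chromosomes did not enter the regions described. Their numbers are flagged, where above 3, as data that the comparisons did not use. The E13.5 CREB list held 28 such peaks of 862, the E18.5 CREB list 10 of 2957 and the H3K4 list 9 of 21211. The E16.5 CREB list held 2 of 3528. The limit of 3 does not test whether these peaks are signal.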

How the results depend on the processing

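Of 61 values recomputed under alternatives, 45 stayed close to those reported, 16 moved and 0 reversed. Without the E16.5 list, 222 regions remained outside coding genes, 18.47% of them were in both remaining lists, 51.4% had H3K4 within 1000 bp, the median distance was 11822 bp and 8 genes of the lists, against 13, were nearest to a region. With coding gene ends of 2500 bp the median distance was 23563 bp, a move that the wider limit itself brings, and with noncoding ends of 2500 bp 34.4% of regions lay at one. The H3K4 share was 41.5% within 500 bp, 38.4% by overlap, 36.9% without noncoding ends and 53.4% for regions with an E18.5 peak, and the share with H3K4 on both sides was 3.07% within 500 bp. The difference of H3K4 shares from gene bodies was -11.2 points by overlap and -28.0 points without noncoding ends. The full element with up to 1 mismatch was found in 31.7% of windows, against 6.92% of the windows with H3K4 alone, 11.8% of all long noncoding windows and 27.97% of coding windows with a gene-end CREB region, so the gap to all long noncoding windows was smaller in proportion than for the exact element (16.7% against 0.975%). Gaps of 50000 bp gave 4 stretches. The cause of these moves was otherwise not tested. Leaving out stretches at 10000 bp was not run, since there were none. No paired analysis was possible because each group is 1 library and no test was made. Depth is unknown, so the lists cannot show absence.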
